A study of Mus musculus with 10 samples.

Results

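The genes described here are 44 symbols of the interferon response, covering the sensors of viral nucleic acid, the type I interferon receptor, its transcription factors and the genes that interferon induces, in mouse lymphatic endothelial cells with and without knockdown of Vegfr2. Members were the rows of a table of 16251 genes whose symbol was on the list, and 41 of the 44 symbols had a row. Rigi is the newer name of the gene that the table lists as Ddx58, so the list covers 43 genes, and Mx1 and Mx2 were not analysed here. Of the 41 rows, 40 passed the filter on low counts and were tested. Oas2 did not pass it, with 55 counts summed over the 5 control libraries and 31 over the 5 siRNA libraries.

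RNA came from primary mouse lymphatic endothelial cells, the cells that line lymphatic vessels, in culture. In 5 libraries the cells had received 50 nM of siRNA duplexes against Vegfr2 (gene symbol Kdr), the main VEGF receptor of blood endothelium, and RNA was taken 48 h later. The 5 control libraries carry the genotype label Control and the same 48 h time. Their labels also carry the knockdown treatment tag and name no control siRNA, so whether control cells were transfected is not known from them. The labels do not say whether the 5 libraries of a group came from separate cultures, and p-values measure only the spread between these libraries.

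Interferon-stimulated genes are the targets of a relay that begins when double-stranded RNA or other nucleic acid in the cytosol is bound by sensors such as RIG-I (Ddx58) and MDA5 (Ifih1). Type I interferon then binds IFNAR1 and IFNAR2, and the kinases JAK1 and TYK2 phosphorylate transcription factors, among them STAT2, which acts with IRF9 at the interferon-stimulated response element in the promoters of target genes. Type II interferon uses another receptor and acts through the gamma-activated site. Endothelial cells carry this machinery, and cultured cells hold a basal level of many of these transcripts without added interferon.

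The letters of the response element can be read in many of the members' promoters. RefSeq promoter sequences of GRCm38.p6, 300 bases from 250 before to 50 after the start site, were held for 34 of the 40 tested members. The core of the response element, GAAANNGAAA on either strand, stood in 17 of these 34 promoters (50.0%), against 3.77% of the promoters of 9763 tested genes and 3.99% of all 27025 promoters of that length. The gamma-activated site core, TTCNNNGAA on either strand, stood in 10 of 34 (29.4%), against 8.16% of tested genes. The 5 promoters printed next hold the core and belong to Isg15, the member with the most matches among those shown, to a member of 2 families that fell (Ifit1, Gbp7) and to 2 members that rose (Oas3, Bst2). Each is written 5′ to 3′ on the strand of its gene, and capitals mark the matches to the core, written TTTCNNTTTC where it lies on the opposite strand. The windows are chr4:156200769-156201068 on the minus strand for Isg15, chr19:34640639-34640938 on the plus strand for Ifit1, chr3:142530086-142530385 on the plus strand for Gbp7, chr5:120777610-120777909 on the minus strand for Oas3 and chr8:71537423-71537722 on the minus strand for Bst2.
Isg15 promoter: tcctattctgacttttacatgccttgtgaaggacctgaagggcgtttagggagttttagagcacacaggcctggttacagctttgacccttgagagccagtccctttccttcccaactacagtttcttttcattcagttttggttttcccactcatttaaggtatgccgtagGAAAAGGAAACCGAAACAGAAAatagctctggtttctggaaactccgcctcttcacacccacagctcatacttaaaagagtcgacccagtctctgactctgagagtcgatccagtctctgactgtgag
Ifit1 promoter: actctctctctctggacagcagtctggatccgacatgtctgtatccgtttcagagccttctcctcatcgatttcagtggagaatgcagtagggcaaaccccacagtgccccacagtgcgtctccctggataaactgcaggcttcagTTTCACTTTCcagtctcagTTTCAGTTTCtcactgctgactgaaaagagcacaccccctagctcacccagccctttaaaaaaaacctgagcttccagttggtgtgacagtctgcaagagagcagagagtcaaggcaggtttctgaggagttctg
Gbp7 promoter: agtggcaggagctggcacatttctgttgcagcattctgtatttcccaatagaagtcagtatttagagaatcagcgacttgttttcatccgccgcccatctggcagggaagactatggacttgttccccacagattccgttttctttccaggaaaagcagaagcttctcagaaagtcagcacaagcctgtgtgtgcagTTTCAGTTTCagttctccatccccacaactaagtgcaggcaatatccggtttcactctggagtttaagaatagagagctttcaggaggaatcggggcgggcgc
Oas3 promoter: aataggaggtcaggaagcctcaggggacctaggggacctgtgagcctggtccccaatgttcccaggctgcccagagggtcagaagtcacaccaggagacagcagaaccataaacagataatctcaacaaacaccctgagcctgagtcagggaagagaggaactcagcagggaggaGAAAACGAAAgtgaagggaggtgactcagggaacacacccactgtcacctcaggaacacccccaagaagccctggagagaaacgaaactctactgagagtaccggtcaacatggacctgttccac
Bst2 promoter: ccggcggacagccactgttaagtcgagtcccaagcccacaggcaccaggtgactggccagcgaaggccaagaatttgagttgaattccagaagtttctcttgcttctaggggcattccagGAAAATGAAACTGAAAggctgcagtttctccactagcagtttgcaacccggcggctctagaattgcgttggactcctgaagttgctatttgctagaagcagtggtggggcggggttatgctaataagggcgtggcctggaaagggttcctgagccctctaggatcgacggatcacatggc
Isg15 held 3 overlapping matches, the first beginning 78 and the last 66 bases before the start site. Ifit1 held 2 matches on the opposite strand, 104 and 85 bases before the start, and Bst2 held 2 overlapping matches, 130 and 124 bases before it. Gbp7 and Oas3 held 1 each, 53 and 75 bases before the start. A match describes letters and is not evidence that a factor bound there.

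Levels are given as CPM, a gene's share of the library total scaled to a common size after TMM scaling, a correction for composition. Differences between groups are log2 fold changes of siRNA over control from edgeR's quasi-likelihood test fitted to 12161 genes, called at a Benjamini-Hochberg adjusted p under 0.05. Library totals lay between 17946483 and 18239260 estimated counts, and intervals for single counts would cover counting error only. The target of the siRNA, Kdr, fell by 2.83 on the log2 scale (SE 0.059, adjusted p = 3.14e-11 in edgeR), from 1323 ± 66.3 to 186 ± 14.8 CPM (SD, n = 5 each), and no siRNA library reached the lowest control library. The 7 lymphatic endothelial markers summed to 14190 to 15320 CPM in control and 10460 to 11200 CPM in siRNA libraries. Prox1, the factor that sets lymphatic identity, averaged 487 and 405 CPM, and Pdpn was the only one of the 7 at a low level, with 11.2 and 19.5 CPM. The markers differed between the groups. Prox1 (log2 fold change -0.26), Lyve1 (-0.24), Flt4 (-1.06), Pecam1 (-0.21) and Reln (-0.62) were called lower, Pdpn (0.81) was called higher and Cdh5 (-0.04) did not pass.

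Expression of the interferon response genes moved mostly downward where it moved at all. The test called 3 of the 40 tested members higher (7.5%) and 19 lower (47.5%), and 18 did not pass it. Without siRNA replicate 3 it called 7 higher and 19 lower, and without control replicate 4 it called 5 higher and 18 lower. Over all tested genes 36.1% rose, 35.2% fell and 71.3% were called in either direction, so the 55.0% of members called lay below the background, with more of them lower and fewer higher. The falls were uneven by role: 6 of the 7 interferon-inducible GTPases fell (85.7%), against 0% to 50.0% of the members of each other role. The median log2 fold change was -0.14 over the members and -0.0019 over all tested genes. The CPM of the groups did not overlap for 15 of the 40 members (37.5%), 14 of them lower after siRNA, against 57.0% of all tested genes. The median SD within a group was 0.14 on the log2 scale for members and 0.07 for all tested genes. With a wider spread, a change of a given size passes the test or separates the groups less often. Of the 17 members whose promoter holds the response element core, 3 rose, 9 fell and 5 did not pass. Of the 17 without it, 0 rose, 8 fell and 9 did not pass. These counts stand beside 36.1% of all tested genes higher and 35.2% lower, shares that were not split by the core. In bulk RNA, fewer cells with a transcript and less of it per cell cannot be told apart.

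**Figure D1:**
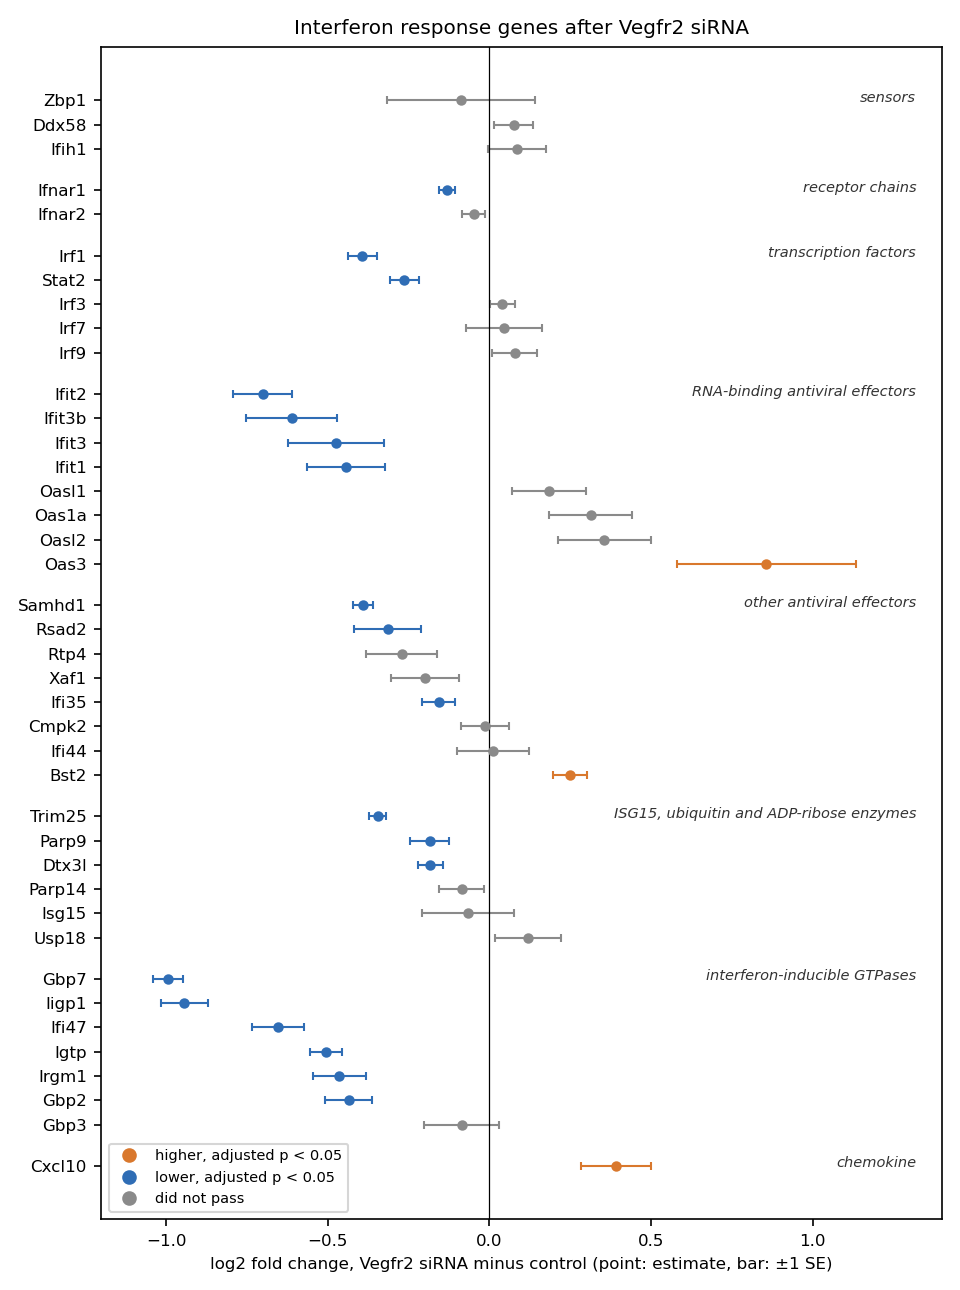
Log2 fold change (x axis, siRNA minus control) of the 40 tested members, in blocks by role, with bars of ±1 standard error from the edgeR fit; orange marks the 3 members that rose, blue the 19 that fell and grey the 18 that did not pass. The GTPases Gbp7 (-0.99) and Iigp1 (-0.94) lie furthest to the left, and Oas3 furthest to the right at 0.86.

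With all 10 libraries, none of the 3 sensors passed the test in either direction. Ddx58, the helicase RIG-I that binds RNA with a 5′ triphosphate, averaged 168 ± 11.3 CPM in the control group and 177 ± 12.8 CPM in the siRNA group (SD, n = 5 each; log2 fold change 0.07, SE 0.06, adjusted p = 0.301 in edgeR). Without siRNA replicate 3 it passed the test as higher (log2 fold change 0.11, adjusted p = 0.0229 in edgeR). Ifih1, the helicase MDA5 that binds long double-stranded RNA, stood at 65.1 ± 6.21 and 69.1 ± 6.93 CPM. Zbp1, a sensor of Z-form nucleic acid linked to necroptosis, varied more between libraries than any other sensor, from 17.9 to 34.4 CPM in control and from 16.96 to 29.2 CPM in siRNA libraries, and its log2 fold change of -0.09 was smaller than its standard error of 0.23. The ranges of all 3 sensors overlapped between the groups.

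Of the receptor chains that bind type I interferon, Ifnar1 fell and Ifnar2 did not pass the test. Ifnar1 measured 276, 277, 279, 281 and 270.5 CPM in control replicates 1 to 5 and 251, 263, 252, 253 and 246 CPM in siRNA replicates 1 to 5. The groups did not overlap, and the difference was small (log2 fold change -0.13, SE 0.02, adjusted p = 6.41e-06 in edgeR), beside a spread of 3.92 CPM (SD) in control and 6.05 CPM in siRNA libraries. Ifnar2 lay between 67.4 and 70.9 CPM in control and between 62.9 and 72.5 CPM in siRNA libraries (log2 fold change -0.05, adjusted p = 0.211 in edgeR), and passed as lower without siRNA replicate 1 (adjusted p = 0.0450).

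Among the transcription factors, Irf1 and Stat2 fell while Irf3, Irf7 and Irf9 did not pass the test. Irf1, the factor induced by type II interferon through the gamma-activated site, measured 43.1, 45.3, 50.0, 46.7 and 48.3 CPM in control and 34.5, 37.7, 32.6, 38.3 and 34.7 CPM in siRNA libraries. Every siRNA library was under every control library (log2 fold change -0.39, SE 0.04, adjusted p = 2.95e-10 in edgeR). Stat2, the subunit that carries the activation domain of the type I complex, went from 142 ± 4.44 to 119 ± 9.22 CPM (SD, n = 5 each; log2 fold change -0.26, adjusted p = 9.77e-05 in edgeR), also without overlap. Irf9, the DNA-binding subunit of the same complex, stood at 94.1 ± 6.51 and 99.3 ± 8.63 CPM, and passed as higher without siRNA replicate 3 (adjusted p = 0.0306 in edgeR). Irf7, an interferon-induced factor that amplifies the transcription of interferon genes, ranged from 167 to 251 CPM in control and from 185 to 226 CPM in siRNA libraries. Irf3, which is present before infection and is activated by phosphorylation, stood at 45.2 ± 2.46 and 46.5 ± 1.71 CPM.

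Among the 8 tested effectors that bind RNA, 4 fell (50.0%, beside 35.2% of all tested genes), 1 rose (12.5%, beside 36.1%) and 3 did not pass the test. Ifit proteins recognise the unmethylated cap or the triphosphate of viral RNA, and all 4 Ifit members fell. Ifit2 measured 126, 105, 121, 130.2 and 108 CPM in control and 74.9, 77.7, 59.6, 72.7 and 78.7 CPM in siRNA libraries. The highest siRNA library lay well under the lowest control library, and the gene was 1.62-fold lower (log2 fold change -0.70, SE 0.09, adjusted p = 0.000101 in edgeR). Ifit3b measured 30.4, 23.6, 28.5, 31.3 and 20.6 CPM in control and 19.2, 17.8, 14.0, 17.8 and 19.3 CPM in siRNA libraries (log2 fold change -0.61, SE 0.14, adjusted p = 0.00368 in edgeR), again without overlap. Ifit1 went from 64.5 ± 9.37 to 47.4 ± 5.66 CPM (log2 fold change -0.44, adjusted p = 0.00972 in edgeR) and Ifit3 from 58.1 ± 10.1 to 41.8 ± 6.20 CPM (log2 fold change -0.47, adjusted p = 0.0177 in edgeR; SD, n = 5 each). For these 2 the highest siRNA library passed the lowest control library. Ifit3 and Ifit3b have fractional counts in all 10 libraries, so reads were divided between genes and their separate values are uncertain. The 4 genes lie in a cluster on chromosome 19 between positions 34550550 and 34650009 (GRCm38.p6).

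The oligoadenylate synthetases answer double-stranded RNA by making the 2′-5′ oligoadenylates of the antiviral response. Of 4 tested members of these enzymes and their relatives, 1 was higher and 0 lower, beside 36.1% and 35.2% of all tested genes. Oas3, the largest of these enzymes, measured 2.24, 1.89, 2.45, 2.87 and 1.68 CPM in control and 4.54, 2.91, 2.52, 3.84 and 6.38 CPM in siRNA libraries. It rose 1.81-fold (log2 fold change 0.86, SE 0.28, adjusted p = 0.0180 in edgeR) from a low level, and siRNA replicate 3 lay within the control range. Oasl2 measured 93.4, 75.9, 96.0, 110.4 and 77.5 CPM in control and 124, 107, 91.8, 115 and 142 CPM in siRNA libraries. Its log2 fold change of 0.36 (SE 0.14) had an adjusted p of 0.0520 in edgeR, and Oas1a, at 41.3 ± 4.80 and 51.3 ± 8.45 CPM, had 0.31 (SE 0.13) and 0.0563. Oasl1 stood at 28.5 ± 3.66 and 32.4 ± 4.19 CPM (log2 fold change 0.18, adjusted p = 0.182 in edgeR). Without siRNA replicate 3, Oas1a and Oasl2 passed the test, with adjusted p values of 0.0180 and 0.0215, and without control replicate 4 they passed with 0.0291 and 0.0250. Oas2, under the filter, stood at 0.612 ± 0.273 and 0.340 ± 0.090 CPM, with overlapping libraries, and was lower when tested without the filter (log2 fold change -0.83, adjusted p = 0.0283 in edgeR). Oas1a has fractional counts in all 10 libraries and belongs to a cluster of near-identical copies.

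Summed over the family, the Ifit genes measured 280, 234, 285, 308 and 231 CPM in control and 186, 187, 145, 178 and 202 CPM in siRNA libraries. The sum of Oas1a, Oas3, Oasl1 and Oasl2 measured 165, 143, 172, 194 and 139 CPM in control and 218, 190, 162, 200.2 and 249 CPM in siRNA libraries. The ratio of the Oas sum to the Ifit sum lay between 0.589 and 0.629 in the control libraries and between 1.01 and 1.23 in the siRNA libraries. While both sums varied by 1.34-fold or more between libraries of a group, the ratio varied by 1.07-fold in control and 1.21-fold in siRNA libraries, and the groups did not overlap. These 2 families were set against each other after their values had been seen, and the ratio is a description with no test.

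**Figure D2:**
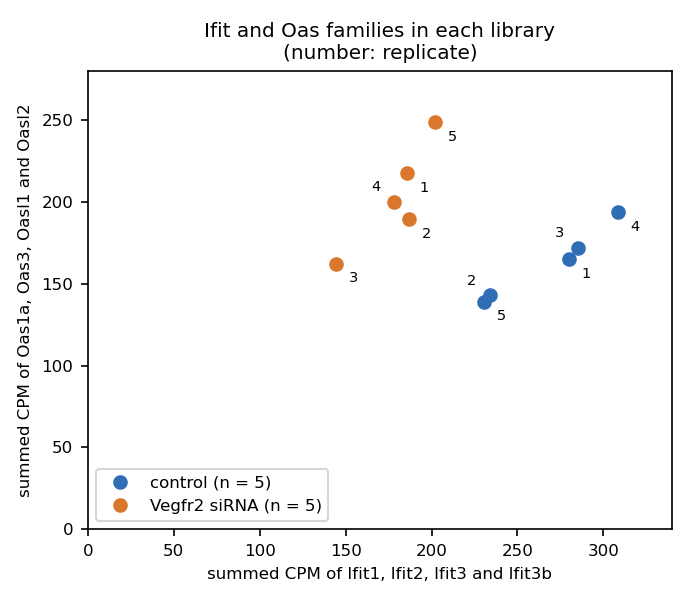
Summed CPM of the 4 Ifit members (x axis) and of 4 Oas members (y axis) in each of the 10 libraries, with replicate numbers beside the points. The siRNA libraries all lie to the left of the control libraries, while their Oas sums (162 to 249 CPM) overlap those of control (139 to 194 CPM). The Oas to Ifit ratios are 1.01 to 1.23 against 0.589 to 0.629, and the control points lie closer to a line than the siRNA points.

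The other antiviral effectors moved in both directions. Bst2, or tetherin, which holds budding enveloped viruses at the cell surface, was the most abundant member per length in control (251 CPM per kb of exon, against 101 for Isg15 and 53.1 each for Rsad2 and Irf7). It measured 246, 212, 235, 238 and 205 CPM in control and 279, 268, 260, 261 and 283 CPM in siRNA libraries, so that every siRNA library was above every control library. It rose 1.19-fold (log2 fold change 0.25, SE 0.05, adjusted p = 0.00135 in edgeR). Samhd1, which breaks down the deoxynucleotides that retroviruses need, measured 119, 115, 112, 118 and 109 CPM in control and 90.5, 87.9, 84.9, 83.2 and 89.6 CPM in siRNA libraries, without overlap (log2 fold change -0.39, SE 0.03, adjusted p = 4.56e-15 in edgeR).

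Rsad2, or viperin, an enzyme that makes a chain-terminating nucleotide, went from 230 ± 20.8 to 185 ± 24.8 CPM (SD, n = 5 each). The fall passed the test (log2 fold change -0.31, SE 0.10, adjusted p = 0.0228 in edgeR), and the groups overlapped, with siRNA replicate 5 at 218 CPM. It did not pass without control replicate 1 (adjusted p = 0.0532 in edgeR) or without control replicate 4 (0.0558). Its neighbour on chromosome 12, the nucleotide kinase gene Cmpk2, stood at 45.5 ± 4.69 and 45.1 ± 3.38 CPM (log2 fold change -0.01, adjusted p = 0.885 in edgeR). Ifi35 fell by 0.16 on the log2 scale (adjusted p = 0.0113 in edgeR), with 16.8% of its exon bases shared with another annotated gene. Rtp4 (log2 fold change -0.27, adjusted p = 0.0539), Xaf1 (-0.20, 0.124) and Ifi44 (0.01, 0.935) did not pass edgeR's test. Rtp4 shares 13.9% of its exon bases with another gene.

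**Figure D3:**
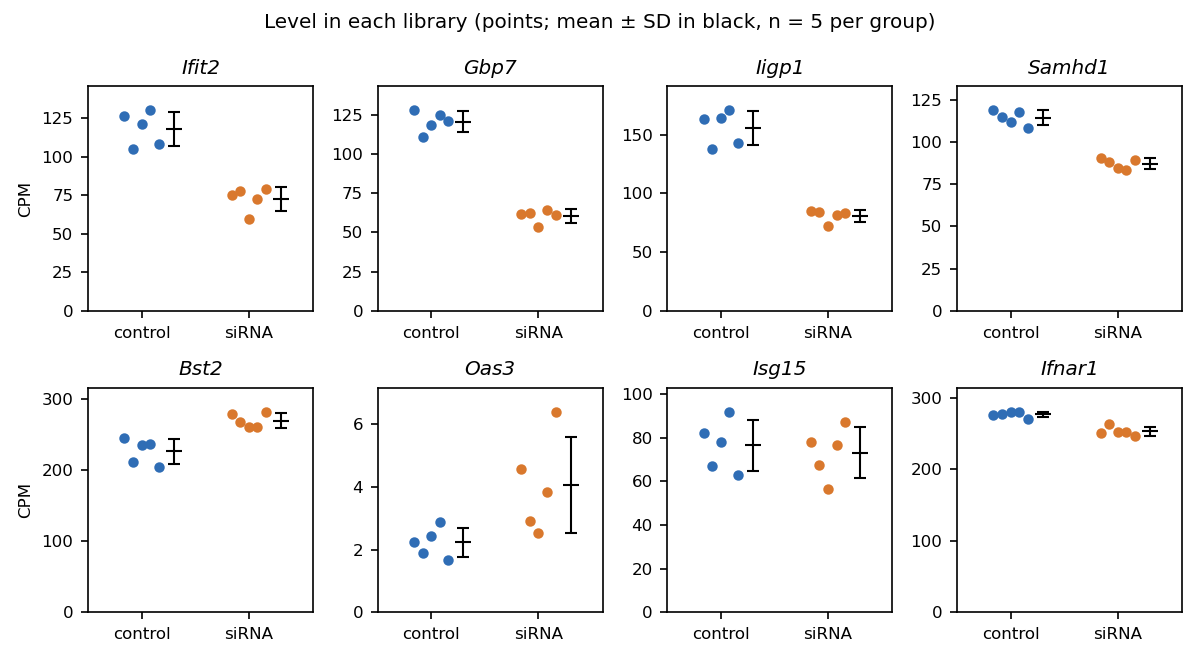
CPM (y axes, from 0) of 8 members in the 5 control (blue) and 5 siRNA (orange) libraries, with the mean ± SD in black. Ifit2, Gbp7, Iigp1, Samhd1 and Ifnar1 are lower in every siRNA library than in any control library and Bst2 is higher, while Oas3 and Isg15 overlap.

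Isg15, the ubiquitin-like protein that is joined to other proteins during the response, did not differ between the groups beyond the spread of its libraries. It measured 82.2, 67.0, 78.3, 92.0 and 63.03 CPM in control and 77.9, 67.4, 56.5, 76.5 and 87.3 CPM in siRNA libraries (log2 fold change -0.07, SE 0.14, adjusted p = 0.7003 in edgeR). Its highest library was 1.46-fold its lowest in control and 1.545-fold in the siRNA group. Usp18, the protease that removes Isg15 and restrains the receptor, stood at 79.1 ± 7.70 and 85.9 ± 10.8 CPM (log2 fold change 0.12, adjusted p = 0.327 in edgeR). Trim25, a ubiquitin ligase that acts on RIG-I, had the least spread of all members: 156, 157, 162, 158 and 159 CPM in control and 124, 123, 122, 126 and 128 CPM in siRNA libraries. It fell without overlap (log2 fold change -0.35, SE 0.03, adjusted p = 1.03e-15 in edgeR).

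Parp9 and Dtx3l, partners in an ADP-ribosylating ubiquitin ligase, each fell by 0.18 on the log2 scale, with adjusted p values of 0.0157 and 4.25e-05 in edgeR. The genes lie head to head on chromosome 16 and share 9.4% and 8.0% of their exon bases with each other, and both have fractional counts in all 10 libraries, so reads of the shared stretch could not be assigned to 1 gene. Parp14, an ADP-ribosyltransferase gene beside them, stood at 182 ± 8.64 and 171 ± 16.6 CPM (log2 fold change -0.09, adjusted p = 0.295 in edgeR).

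Of the 7 interferon-inducible GTPases, 6 fell and their groups did not overlap, beside 35.2% of all tested genes lower and 57.0% without overlap. These proteins coat or break the vacuoles of intracellular pathogens, and fall into guanylate-binding proteins (Gbp) and immunity-related GTPases. Gbp7 measured 128, 111, 118, 125 and 121 CPM in control and 62.1, 62.1, 53.2, 64.1 and 60.9 CPM in siRNA libraries. Every siRNA library lay below every control library by a wide gap, and the level was 1.99-fold lower (log2 fold change -0.99, SE 0.05, adjusted p = 2.18e-13 in edgeR). Gbp7 shares 11.4% of its exon bases with another annotated gene.

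Iigp1, an effector GTPase that acts on the vacuole of parasites, measured 163, 138, 164, 171 and 143 CPM in control and 84.6, 84.0, 72.0, 81.7 and 82.9 CPM in siRNA libraries, and was 1.92-fold lower (log2 fold change -0.94, SE 0.07, adjusted p = 2.00e-06 in edgeR). Ifi47 measured 18.4, 15.01, 17.5, 18.2 and 15.6 CPM in control and 11.3, 11.0, 9.11, 9.43 and 13.0 CPM in siRNA libraries (log2 fold change -0.65, SE 0.08, adjusted p = 3.89e-08 in edgeR). The regulatory members Irgm1 and Igtp, which keep effector GTPases inactive on the cell's own membranes, fell by 0.46 and 0.51 on the log2 scale, from 164 ± 16.2 to 119 ± 9.67 CPM and from 38.6 ± 2.48 to 27.2 ± 2.22 CPM (SD, n = 5 each). Gbp2 fell by 0.43 on the log2 scale, from 74.6 ± 4.12 to 55.2 ± 6.15 CPM. The adjusted p values in edgeR were 0.000823 for Irgm1, 4.96e-11 for Igtp and 0.000382 for Gbp2.

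Gbp3 was the exception, with control libraries at 92.5 ± 11.4 CPM and siRNA libraries at 87.3 ± 11.8 CPM (log2 fold change -0.09, SE 0.12, adjusted p = 0.535 in edgeR). It lies beside Gbp7 on chromosome 3, from 142560016 to 142573213, while Gbp7 spans 142530336 to 142550151 (GRCm38.p6). The ratio of Gbp7 to Gbp3 was 1.14 to 1.46 in the control libraries and 0.598 to 0.770 in the siRNA libraries. This pair was also chosen after its values had been seen. The promoters of both hold the response element core.

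Cxcl10, the chemokine that draws T cells through CXCR3, rose from a low level. It measured 7.44, 6.84, 8.56, 9.0 and 5.94 CPM in control and 9.58, 9.93, 7.96, 10.1 and 12.0 CPM in siRNA libraries. Of the siRNA libraries, 4 lay above all controls and siRNA replicate 3 lay among them (log2 fold change 0.39, SE 0.11, adjusted p = 0.00299 in edgeR).

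Genes of the pathway that are not members were read from lists of the same fit, in which 36.1% of all tested genes rose and 35.2% fell. The only ligand row of 10 listed, Ifnb1 (interferon beta), held 3 counts summed over the control libraries and 6 over the siRNA libraries and was not tested. Of 6 tested receptor and kinase genes, 0 rose and 3 fell. Ifngr1, the ligand-binding chain for type II interferon, fell by 0.57 on the log2 scale from 75.7 ± 1.41 to 51.0 ± 2.2 CPM (adjusted p = 4.79e-19 in edgeR), while its partner Ifngr2 stood at 71.1 ± 2.34 and 73.9 ± 1.94 CPM (adjusted p = 0.121). Jak1 fell by 0.07 (adjusted p = 0.00630 in edgeR), and Tyk2 did not pass (log2 fold change 0.02, adjusted p = 0.563). The kinase gene Jak2 fell by 0.30 without overlap, from 75.7 ± 1.61 to 61.5 ± 1.81 CPM (adjusted p = 3.86e-11 in edgeR).

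Of 16 tested sensors and adaptors outside the members, 2 rose (12.5%), 4 fell (25.0%) and 10 did not pass. Tlr3, the endosomal receptor of double-stranded RNA, fell by 0.49, and Mavs, the mitochondrial adaptor of RIG-I and MDA5, fell by 0.24 on the log2 scale. Adar, which edits double-stranded RNA, stood at 142 ± 7.24 and 142 ± 7.20 CPM. Of 14 inhibitors of interferon signalling, 7 rose (50.0%) and 4 fell (28.6%). Those that rose included Socs1 (log2 fold change 0.37), Socs3 (0.28) and the phosphatase gene Ptpn2 (0.37), named after their values were seen. Socs1 was near the threshold (adjusted p = 0.0457 in edgeR) and at a low level, with 1.76 CPM in control and 2.27 CPM in siRNA libraries. The groups overlapped for Socs1 and Socs3 and did not for Ptpn2. The others that rose were Nlrc5 (0.16), Irf2 (0.14), Pias4 (0.12) and Ptpn11 (0.09). Those that fell were the phosphatase gene Ptpn6 (-1.89, from 1.97 to 0.527 CPM), the cytokine-signalling inhibitor Cish (-1.06), Pias1 (-0.37) and Pias2 (-0.16). None of those that fell had overlap between the groups.

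Of 38 other interferon-stimulated genes tested, 7 rose (18.4%), 17 fell (44.7%) and 14 did not pass, with a median log2 fold change of -0.16. Uba7, the activating enzyme for Isg15, fell by 1.06 on the log2 scale, from 52.5 ± 3.35 to 25.1 ± 1.53 CPM (adjusted p = 5.21e-23 in edgeR), while Isg15 itself did not pass the test. Ifi203 and Mndal, DNA-binding proteins of the p200 family, fell by 0.70 and 0.67. Ifi204 (log2 fold change 0.25), Ifi205 (0.64) and Ifi207 (0.39) of the same family rose, and of these only Ifi207 had no overlap. Ifi205 was at a low level, with 0.744 CPM in control and 1.16 CPM in siRNA libraries. Ifi203 and Ifi205 have fractional counts in all 10 libraries and Mndal and Ifi204 in 9, so their separate values are uncertain. Herc6, the mouse ligase for Isg15, fell by 0.51. Tor1aip1, a protein of the nuclear envelope, fell by 0.56. Of 9 other GTPases tested, 7 fell (77.8%, beside 35.2% of all tested genes) and 0 rose, with a median log2 fold change of -0.49. Gbp4 (-1.15), Tgtp1 (-0.63), Tgtp2 (-0.60) and Irgm2 (-0.58) had no overlap between the groups, and Tgtp1 and Tgtp2 are near-identical copies whose reads cannot be fully separated. Of 5 other interferon regulatory factors, 1 rose and 2 fell.

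Apart from the difference between groups, the members rose and fell together between libraries of 1 group. For each gene, the deviation is the log2 CPM of a library minus the mean of its group. Averaged over the 40 members, the deviation was 0.04, -0.11, 0.06, 0.16 and -0.14 in control replicates 1 to 5 and 0.07, -0.02, -0.21, 0.00 and 0.16 in siRNA replicates 1 to 5. The highest library of the control group was replicate 4 and the lowest replicate 5, a 1.23-fold range, and the siRNA group ran from replicate 3, the lowest, to replicate 5, the highest, a 1.297-fold range. The same mean over all tested genes, which TMM scaling holds near 0, stayed within 0.0043 of 0 in every library.

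**Figure D4:**
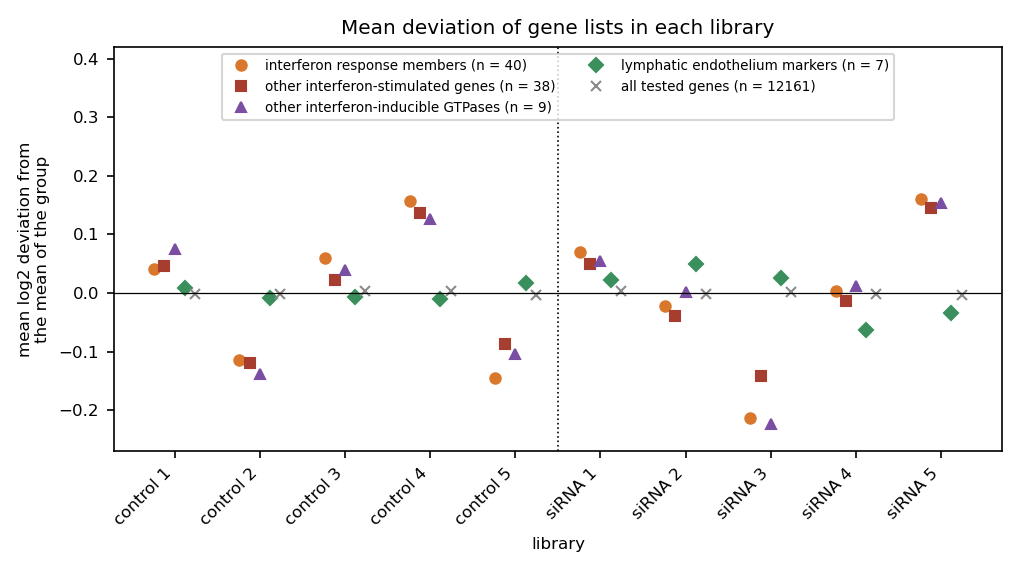
Mean log2 deviation from the group mean (y axis) in each of the 10 libraries (x axis) for the 40 members, 38 other interferon-stimulated genes, 9 other interferon-inducible GTPases, 7 lymphatic endothelial markers and all 12161 tested genes. The 3 interferon lists move together, from -0.21 for the members in siRNA replicate 3 to 0.16 in siRNA replicate 5. All tested genes stay near 0, where TMM scaling holds them.

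Most members shared these deviations. In control replicate 4, 37 of 40 members stood above their group mean, and in control replicates 2 and 5 only 4 and 5 did. In siRNA replicate 5, 37 stood above the mean, and in siRNA replicate 3, 0 of 40 did. Over all tested genes the share above the group mean lay between 47.2% and 52.4% in every library. Control replicate 4 was the highest control library for 28 of 40 members, and siRNA replicate 3 was the lowest siRNA library for 36 of 40, against 19.6% and 18.9% of all tested genes.

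**Figure D5:**
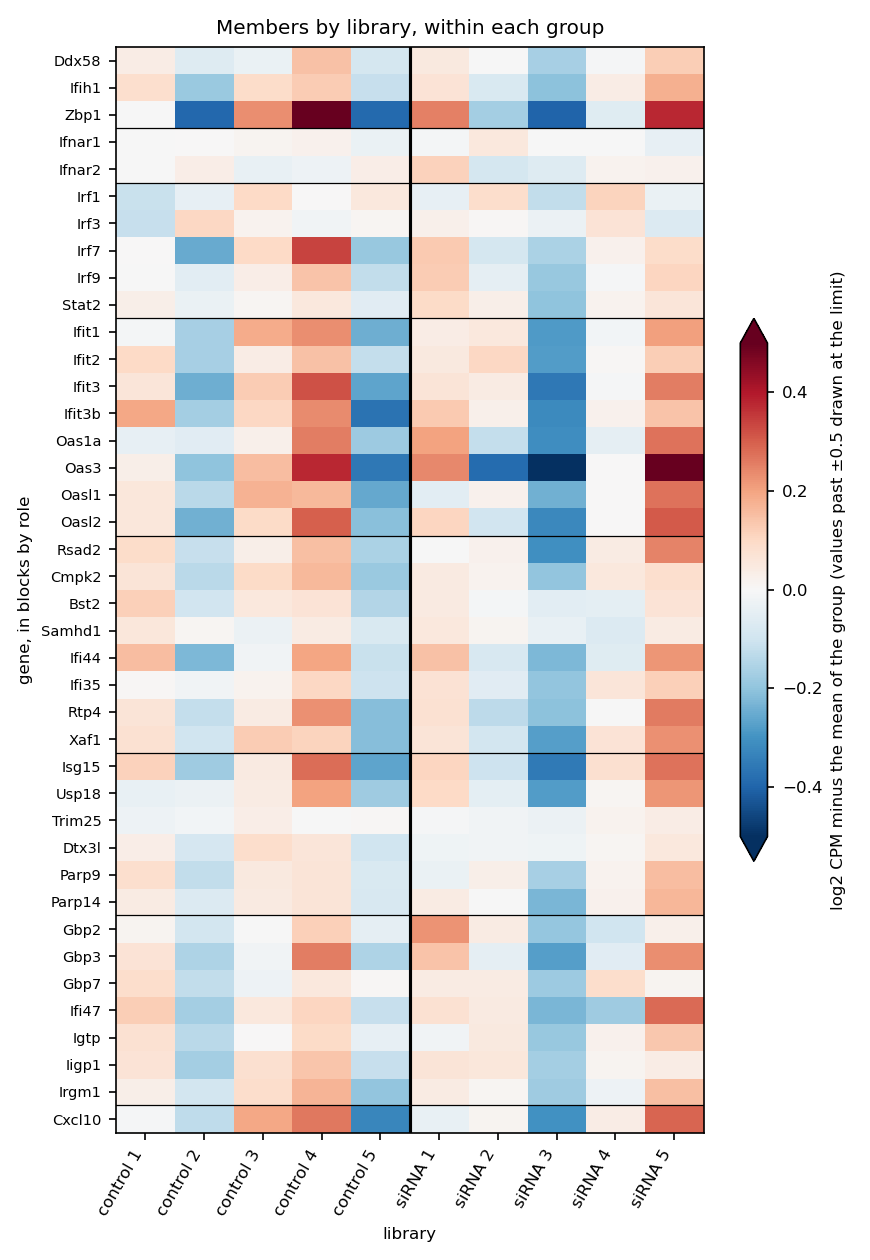
Log2 CPM minus the mean of the group (colour, limits at ±0.5) for the 40 tested members (rows, in blocks by role) in the 10 libraries (columns, control left of the line). All 40 values are below 0 in siRNA replicate 3, some only just (Ifnar1 at -0.002), and 37 are above 0 in control replicate 4. Trim25, Ifnar1 and Ifnar2 are pale throughout.

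The members also spread more between libraries than most genes. Their median SD within a group was 0.14 on the log2 scale, against 0.07 over all tested genes, and 34 of 40 were above that median. Oas3 (0.42), Zbp1 (0.36), Ifit3 (0.24), Oasl2 (0.23) and Isg15 (0.23) had the widest spread. Trim25 and Ifnar1 had an SD of 0.03, in the lowest 3.68% of all genes. Among the 34 members with a promoter, the 17 with the response element core had a median SD of 0.17 and the 17 without it 0.11.

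Over the 741 pairs of 39 members with a mean of at least 5 CPM, the median Pearson correlation of the deviations was 0.795 across the 10 libraries, and 75.4% of pairs were above 0.5. Over all pairs of 10324 genes at that level the median was 0.0020, and 9.63% were above 0.5. These points share libraries and depth, and the correlations are descriptions. A member paired with 1 of 43 other interferon-stimulated genes or GTPases had a median of 0.713, and with a lymphatic marker -0.366. Without siRNA replicate 3, the library with the lowest members, the median over the pairs of members was 0.744.

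Against the mean of those 43 genes, which hold no member, 30 of 40 members had a correlation above 0.8 and 36 above 0.5. Oasl2 (0.990), Isg15 (0.985), Gbp3 (0.978), Ifih1 (0.969) and Rtp4 (0.964) followed it most closely. None of these 5 passed the test between groups, while Ifit3 (0.954), Oas3 (0.941), Rsad2 (0.938), Irgm1 (0.930) and Ifi35 (0.926), which also followed it closely, did. Gbp7 (0.693), Samhd1 (0.622) and Trim25 (0.514), with the 3 smallest adjusted p values among members, followed it less closely. A wider spread within groups raises the adjusted p of a difference of the same size, so a contrast of correlation with adjusted p is partly built in. Oasl2 had a log2 fold change of 0.36 (SE 0.14) and Trim25 had -0.35 (SE 0.03). The 4 members under 0.5 were Ifnar2 (0.279), Irf1 (0.095), Ifnar1 (-0.113) and Irf3 (-0.360), which are both receptor chains and 2 of the 5 transcription factors.

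Other cell types were looked for beside this covariation. Of 8 macrophage and monocyte markers 5 had a row, and their sum lay between 41.9 and 49.8 CPM in control and between 30.1 and 40.5 CPM in siRNA libraries, nearly all of it from Cd68, while Csf1r, Itgam, Fcgr1 and Cx3cr1 held at most 6 counts each over a group, with Fcgr1 and Cx3cr1 at 0 in all control libraries and Csf1r at 0 in all siRNA libraries. Dendritic cell markers summed to 1.68 to 2.56 CPM in control and 2.41 to 2.97 CPM in siRNA libraries, and lymphocyte, fibroblast and epithelial markers to at most 0.168, 1.21 and 0.222 CPM in any library. By replicate 1 to 5, the macrophage sum, nearly all Cd68, was 43.5, 41.9, 49.8, 46.4 and 42.4 CPM in control. The sum was higher in replicates 3 and 4, where members were high, than in replicates 2 and 5, where they were low. In replicate 1, where the mean deviation of members was 0.04, the sum was near that of replicates 2 and 5. In the siRNA group it was 35.3, 30.8, 40.5, 33.5 and 30.1 CPM, highest in replicate 3, where members were lowest. Control replicates 4 and 5, with the highest and lowest members, also had the highest and lowest totals of their group, 18162327 and 17946483 estimated counts. In the siRNA group, replicate 3 had 18209350 and replicate 5, with the highest members, 18160017. The part of these values in the covariation, and that of culture, transfection or handling, was not tested.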

How the data were processed

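Poly(A) RNA of 10 libraries (5 control, 5 Vegfr2 siRNA) was sequenced, per the labels' protocols. The authors deposited 1 expected count (estimated count) per gene and library, without normalization. Fractional values make up 10.5% to 11.3% of a library's genes. The submitters' processing notes list GRCm38.p6 as the build and, among tools, RSEM 1.3.1, Bowtie2 2.4.5 and HISAT2 2.2.1. The role of each tool, the annotation and the strand setting were not given in these sources, so overlapping genes may share reads.

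Expected counts were rounded and fitted over the whole table by the robust quasi-likelihood method of edgeR (version 4.0.16, under R 4.3.3), with group as the only term, TMM scaling and genes kept by filterByExpr at a minimum count of 10. Adjustment was by Benjamini-Hochberg over 12161 genes, with a threshold of 0.05. CPM used TMM-scaled totals of the unrounded values, and log2 CPM for deviations used a prior count of 2. The fit was tested on simulated data. Alternatives were DESeq2 1.42.0, limma-voom (limma 3.58.1), scaling by RLE or by the upper quartile, other filters on low counts, the replicate number as a block and leaving out each library. Within groups, every pair of libraries differed beyond sampling noise (chi-square over its degrees of freedom, 1.50 to 3.47), so each library was counted once. Coordinates and promoters came from RefSeq (GRCm38.p6, 16202 gene IDs matched), and exon lengths and shared exon bases from GENCODE M21 on the same build. No protein sequences were used here.

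Named genes were Kdr, every member with a row, 7 pathway genes (Jak1, Tyk2, Ifngr1, Ifngr2, Mavs, Tlr3, Adar), and any other pathway gene with an adjusted p under 0.05, an absolute log2 fold change of at least 0.5 and no overlap between groups. Some pathway genes covered by this rule are not reported here. Ifnb1 and the cell type markers were added as context. Inhibitors named here other than Ptpn6 and Cish, the p200 genes that rose and Jak2 were added outside this rule, after their values were seen. Members and lists were chosen with earlier results of these data known.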

Additional observations from a re-analysis of the deposited data

Results flagged for a closer look

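In 84 groups of 5 values, those of the 40 tested members, of Kdr and of the members' mean deviation in each of the 2 groups of libraries, 4 values stood apart from the rest of their group by Dixon's test at the 95% level, all of them the lowest and all in siRNA replicate 3. They were Stat2 at 103 CPM, with the nearest library at 120 CPM, Ifit3b at 14.0 CPM (nearest 17.8 CPM), Cmpk2 at 39.2 CPM (nearest 45.5 CPM) and Iigp1 at 72.0 CPM (nearest 81.7 CPM). Chance flags about 1 in 20 groups, and the genes come from the same libraries and vary together, so the 4 values are not independent. Stat2, Ifit3b and Iigp1 fell, and Cmpk2 did not pass the test, also without this library.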

How the results depend on the processing

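Of the 22 members called, 19 (16 lower and 3 higher) kept their direction and call in every one of the 17 alternatives in which they were tested. The replicate numbers did not pair the libraries: same-numbered libraries correlated between -0.0745 and 0.0198 in their deviations, 0 of 5 above 0.1, and 0 of 10 libraries correlated best with their own number. With the replicate number as a block, 3 members rose and 16 fell, and Ifit1, Ifit3 and Rsad2 did not pass (adjusted p = 0.0654, 0.0771 and 0.0776 in edgeR). Over all genes, the block fit called 8537, against 8668 without it.

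The number of members that rose was 5 with DESeq2, which also called Oas1a and Oasl2 (adjusted p = 0.0272 and 0.0258), and ran from 3 to 7 with each library left out in turn. It was 7 without siRNA replicate 3, where Ddx58, Irf9, Oas1a and Oasl2 also rose, and 5 without control replicate 4. The number that fell ran from 18 to 20 with a library left out. Without a filter on low counts 20 members fell, Oas2 among them (log2 fold change -0.83, adjusted p = 0.0283 in edgeR; 0.0829 in DESeq2). Rtp4 fell with DESeq2, upper-quartile factors and the 5 CPM minimum (adjusted p = 0.0280, 0.0409 and 0.0458), and without siRNA replicate 5 or control replicate 5. Ifnar2 fell without siRNA replicate 1 (adjusted p = 0.0450 in edgeR).

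The sign changed only for genes that did not pass the test. Ifi44 had a log2 fold change of -0.0047 with upper-quartile factors. With a library left out, Ifi44 ran from -0.0463 to 0.0656, Zbp1 from -0.190 to 0.0763, Cmpk2 from -0.0555 to 0.0332, Isg15 from -0.137 to 0.0145, Irf7 from -0.0133 to 0.140 and Adar from -0.0303 to 0.0237. The cause was not tested. The low counts of Oas2, Oas3 and Cxcl10 limit what can be said of them.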
